A study of Arabidopsis thaliana with 3 samples.

Results

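LEA4-5 (AT5G06760), AT2G46300 and AT1G52680 are 3 genes annotated as late embryogenesis abundant (LEA) in Arabidopsis thaliana, and they were followed in plants overexpressing ABAP1 through flower bud, open flower and silique stages. They were selected on their LEA annotation and on their flower bud values, lower transcript levels in ABAP1OE in the study's own list, and each had a probe on the array whose annotation gives exactly 1 gene symbol. They are 3 of the 5413 genes with such a probe. The flower bud values therefore took part in the choice, and since earlier results for the open flowers and siliques were also known when it was made, the values of all stages are given as a description.

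LEA proteins are small, mostly very hydrophilic proteins that accumulate when seeds dry at the end of maturation and, in vegetative tissue, under drought, cold and abscisic acid (ABA). Many of them lack a fixed structure in water and protect enzymes and membranes during dehydration, and several families are also expressed in maturing pollen, which dries before it is shed. LEA4-5 belongs to the LEA_1 family, whose members in Arabidopsis are induced by water deficit and by ABA. AT2G46300 carries the LEA group 2 domain of the hydroxyproline-rich glycoprotein and NDR1/HIN1-like family, most of whose known members are membrane proteins and not hydrophilic seed proteins. AT1G52680 is annotated only as LEA-related, and it lies next to LEA7, a LEA_4 family gene that had no probe of its own.

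The tested plants were ABAP1OE, in the Col-0 background, which carry the ABAP1 coding sequence under the constitutive 35S promoter of cauliflower mosaic virus, and they were compared with wild-type (WT) Col-0. ABAP1 is an armadillo and BTB domain protein that represses transcription with partner transcription factors and restrains DNA replication. The study describes that no homozygous ABAP1OE plants were recovered, and the sources used here do not say how many transgenic lines entered the arrays or give the age of the plants. Pools of flower buds at stage 13, of open flowers at stage 14 and of siliques at stages 15 to 16 were hybridised on 2-colour arrays of long oligonucleotides, with both dyes used for each genotype. Whole organs were used, so fewer cells of a type and less RNA per cell cannot be told apart in any ratio.

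The authors combined 3 biological replicates of a stage into 1 log2 ratio of ABAP1OE over WT per probe, so each stage is 1 sample, no error across plants can be given, and no test between genotypes or stages was made. A ratio of -1 is a 2-fold lower level in ABAP1OE, and 2-fold was used throughout to count a gene as lower or higher. The only spread that the values allow is that between different probes of the same gene. It is given as a typical SD, the square root of the median variance over genes. This SD was 0.17 for buds (49 genes), 0.15 for open flowers (51 genes) and 0.26 for siliques (48 genes). Genes whose probes were equal, and values about 4.64-fold or more from WT, were left out of it. It describes probes and not plants. At the bud, open flower and silique stages 29, 28 and 24 of the 36 empty spots were at or beyond -2.21, a 4.64-fold lower level, so low ratios in that range also come from spots without a probe. The silique ratios were more widely scattered than the bud ratios, with a median absolute deviation of 0.214 against 0.164 over all transcript probes. The direction of the flower bud column was settled from the signs of the genes that the study lists for buds, and that of the other columns rests on their labels.

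LEA4-5 had opposite ratios in flower buds and siliques. Its log2 ratio was -1.92 in ABAP1OE buds, -0.19 in open flowers and 1.21 in siliques. The transcript was thus at 26.4% of the WT level in buds, at 87.7% in open flowers and at 231% in siliques. It was the lowest of the 3 genes in buds and the highest in siliques, and in open flowers it lay between the others and within the central range of all genes. The steps between neighbouring stages were 1.73 and 1.40 on the log2 scale. The spread between probes of a gene lies within a stage and does not measure the error of such a step. The bud ratio lay above -2.21, which most empty spots were at or beyond, but close to it. What each replicate contributed to it is unknown.

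Against all genes, LEA4-5 stood near both ends of the array. In flower buds 116 of 5413 genes had a lower ratio, and in siliques 34 genes had a higher ratio, which is 0.628% of them. The open flower ratio was unremarkable by this measure, with 21.5% of genes below it. The difference between siliques and buds was 3.13, and 25 genes had a larger one, although the bud value in it was used to choose the gene.

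At least 2-fold lower ratios were found for 238 genes in buds, or 4.4% of those with a probe of their own, and at least 2-fold higher ratios for 67 genes in siliques, or 1.24%. LEA4-5 was 1 of 6 genes, of 5413, that met both, and its low bud ratio had been part of its choice. Of the 124 genes that were 2-fold to 4-fold lower in buds, 4 were at least 2-fold higher in siliques, and LEA4-5 is among these 4. The median silique ratio of the 124 was -0.18, with quartiles of -0.52 and 0.09. The silique ratio of LEA4-5 lay well above these quartiles. When the silique column was scaled to the spread of the bud column, its ratio there was 0.92, which is just under 2-fold, and 25 genes in all were then at least 2-fold higher.

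**Figure D1:**
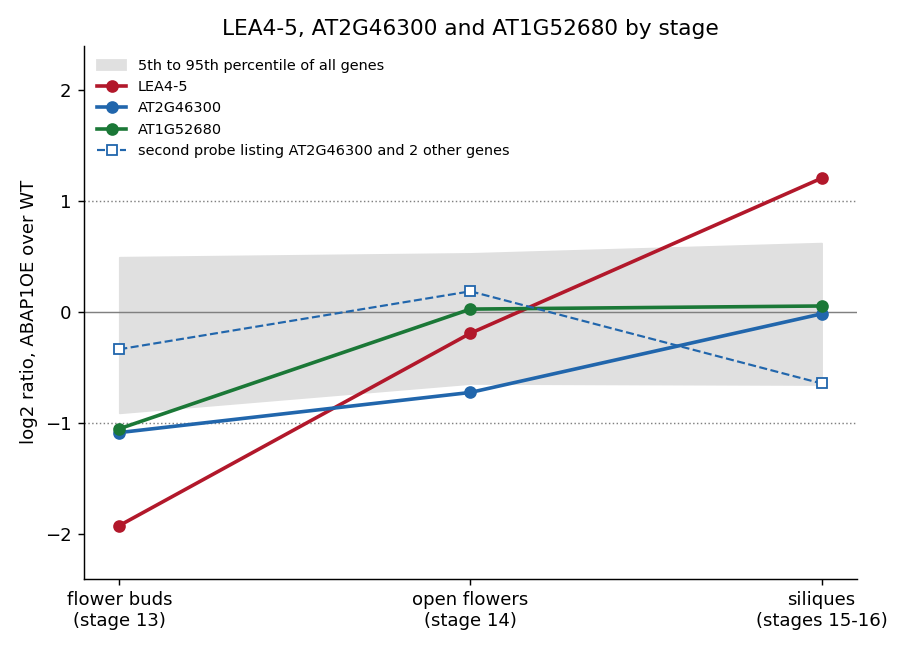
Log2 ratios of ABAP1OE over WT (vertical axis) for LEA4-5, AT2G46300 and AT1G52680 at 3 stages (horizontal axis), 1 combined value per point. The grey band holds the 5th to 95th percentile of 5413 genes, and dotted lines mark 2-fold. Open squares show a second probe that lists AT2G46300 with 2 other gene symbols. LEA4-5 runs across the band, with -1.92 in buds and 1.21 in siliques, while AT1G52680 lies near 0 after the bud stage.

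AT2G46300 was lower in flower buds and open flowers and near WT in siliques. Its log2 ratio was -1.08 in ABAP1OE buds, -0.72 in open flowers and -0.01 in siliques. These ratios correspond to 47.2%, 60.6% and 99.0% of the WT level. The bud value, a 2.12-fold lower level, was just past 2-fold, and the open flower value was not past it. In both stages few genes were lower, 3.93% of all genes in buds and 4.16% in open flowers, whereas in siliques 49.3% of genes had a lower ratio. At least 2-fold lower ratios in open flowers were found for 2.81% of genes.

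AT2G46300 is also listed, with 2 other gene symbols, on a second probe, and the pair of probes did not give the same picture. The second probe was at -0.33 in buds, 0.19 in open flowers and -0.64 in siliques, so it was higher than the gene's own probe before fruit set and lower after it. With both probes averaged, AT2G46300 was at -0.71 in buds, -0.27 in open flowers and -0.33 in siliques, under 2-fold at every stage. Which of the listed transcripts gave the signal of the second probe was not tested. The order of the stages for AT2G46300 therefore holds for its own probe only.

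AT1G52680 was lower in flower buds and close to WT at the later stages. Its log2 ratio was -1.05 in ABAP1OE buds, 0.03 in open flowers and 0.06 in siliques, which is 48.3%, 102% and 104% of the WT level. The bud value was a 2.07-fold lower level, the smallest of the 3 genes. The open flower and silique values differed by 0.03, and the error between stages is not known. In both later stages AT1G52680 stood near the middle of all genes, with 55.5% and 58.4% of genes below it. Neither AT1G52680 nor LEA4-5 is listed on any other probe, so no second measurement of them was at hand.

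The 3 genes shared a low bud ratio because they were chosen for it, and they differed at the other stages. In open flowers AT2G46300 was the lowest, at -0.72, and LEA4-5 and AT1G52680 differed by little more than the spread between probes. In siliques LEA4-5 stood 1.15 above AT1G52680 and 1.22 above AT2G46300 on the log2 scale, and those 2 genes differed by 0.07. Measured as the Euclidean distance over the 3 log2 ratios, AT2G46300 and AT1G52680 were 0.76 apart, while LEA4-5 was 1.58 from AT2G46300 and 1.46 from AT1G52680. The members were not each other's nearest genes, since 160 genes lay closer to AT2G46300 than AT1G52680 did, and 78 genes lay closer to LEA4-5 than AT1G52680 did.

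By the same distance, the 5 genes nearest to LEA4-5 were AT1G33870, AT5G27970, AT1G31960, AT1G57650 and AT1G48700, at distances of 0.43 to 0.69. AT1G57650 was the only 1 of the 5 that was past 2-fold in both buds and siliques in the way of LEA4-5, with -1.57 in buds, 0.23 in open flowers and 1.54 in siliques. AT1G33870 and AT1G31960 were both at exactly -2.21 in buds, the level of the empty spots, and at 0.90 and 0.80 in siliques. AT5G27970 was at -1.77 in buds and 0.93 in siliques, and AT1G48700 at -1.83 and 0.55. The positive silique ratios of these neighbours follow from their choice, since the distance includes the silique ratio.

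The genes nearest to AT2G46300 were AT3G21570, chx28, NRAMP5, AT3G01250 and AT3G32896, at distances of 0.13 to 0.24. chx28, a cation/hydrogen exchanger, was at -1.04 in buds, -0.65 in open flowers and -0.21 in siliques. NRAMP5, of a family of metal ion transporters, was at -0.89, -0.63 and 0.04. Those of AT1G52680 were AT4G13680, AT1G77730, AT3G21940, BGLU36 and AT5G36080, at distances of 0.08 to 0.20. BGLU36, of the beta glucosidases, was at -1.09 in buds, -0.07 in open flowers and 0.16 in siliques. Each of these 10 genes had a bud ratio between -1.29 and -0.89, and they differed between both groups mainly in open flowers. This follows from the choice of the neighbours, since the distance includes the ratios of every stage. AT2G46300 and AT1G52680 themselves differed mainly in open flowers. The likenesses between each gene and its neighbours rest on 3 values per gene and are descriptions.

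**Figure D2:**
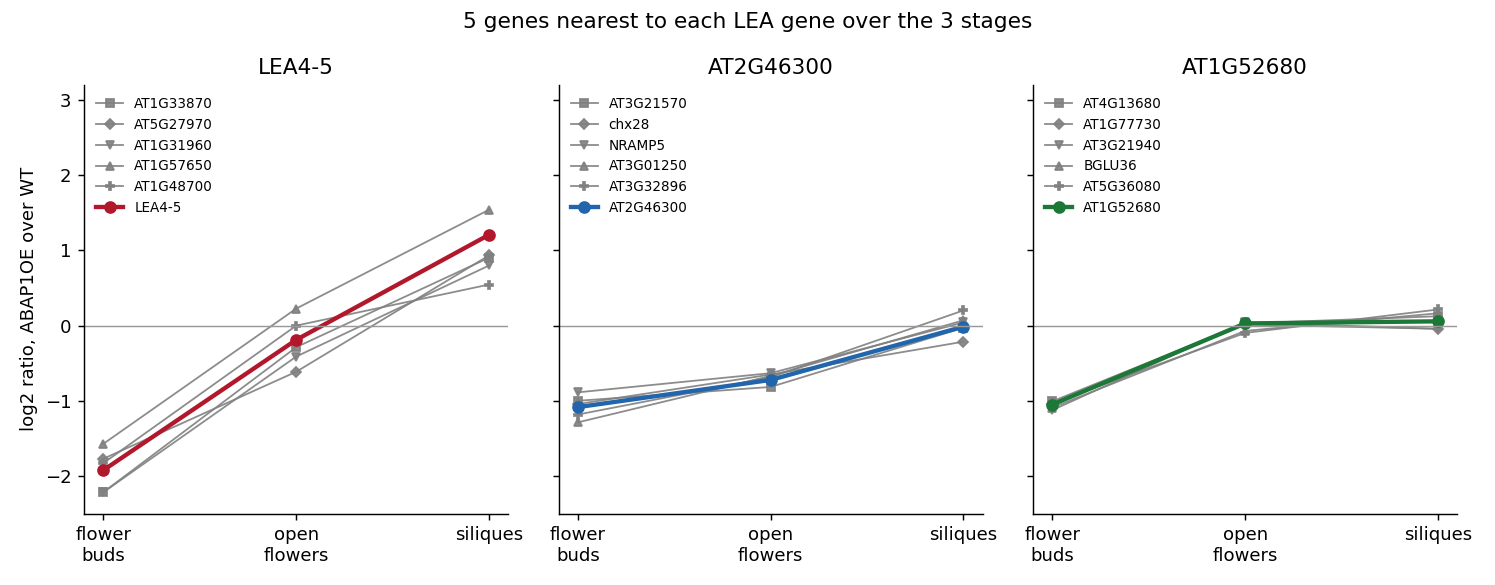
Log2 ratios of ABAP1OE over WT (vertical axis) in flower buds, open flowers and siliques (horizontal axis) for each of the 3 LEA genes (coloured) and the 5 genes nearest to it by Euclidean distance (grey). The neighbours of LEA4-5 spread more, with distances of 0.43 to 0.69, than those of AT2G46300 (0.13 to 0.24) and AT1G52680 (0.08 to 0.20).

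The wider LEA group was then taken, to see the 3 genes beside their families. Of 65 genes listed as LEA, dehydrin, seed maturation protein or NDR1/HIN1-like, 15 had a probe of their own and 25 were on no named probe. The other 25 were only on probes whose annotation gives several gene symbols, called shared probes here. Symbols were counted as genes, and whether several symbols name 1 gene was not checked. In ABAP1OE flower buds 5 of the 15 were at least 2-fold lower, against 4.4% of all genes, and 1 was at least 2-fold higher, against 1.11%. The 5 include the 3 chosen genes and AT1G15415, which the study also lists for buds, so the count is not independent evidence of a direction. Without the 3 chosen genes, 2 of 12 were lower and 1 was higher. The median of the 15 in buds was -0.60, that of the 12 was -0.22 and that of all genes was 0.01. With shared probes averaged in, LEA genes found only on shared probes entered as well. The LEA median in buds was then -0.27, over that larger set and not over the 15 genes.

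The fifth LEA gene that was at least 2-fold lower in buds was AT3G17520, of the LEA_4 family, whose proteins form amphipathic helices on drying. AT3G17520 had the lowest bud ratio of the 15 genes, at -2.82, followed by -0.69 in open flowers and 0.44 in siliques. The bud value lies in the range of most empty spots. With a shared probe averaged in, AT3G17520 was at -2.26 in buds, -0.26 in open flowers and 0.17 in siliques. Its run from low in buds to above WT in siliques was in the same order as that of LEA4-5, with a difference of 3.27 between these stages, but the silique ratio was under 2-fold.

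Only 3 of 17 LEA_4 genes had a probe of their own, and by it the other 2 were also below 0 in buds and above 0 in siliques. Of all genes, 46.8% were below 0 in buds and 2527 of 5413 were above 0 in siliques. AT2G42560 was at -0.60 in buds, -0.70 in open flowers and 0.39 in siliques. AT3G02480 was at -0.68 in buds, -0.04 in open flowers and 0.55 in siliques, or at -0.92, -0.61 and -0.17 with a shared probe averaged in. None of these values was past 2-fold, and the positive silique ratio of AT3G02480 held for its own probe only. AT1G15415, described as weakly similar to LEA proteins and found in the pollen proteome, was at -1.27 in buds, -0.38 in open flowers and 0.03 in siliques.

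Just outside 2-fold in flower buds stood AT2G33690, a short LEA protein gene, at -0.78, with -0.15 in both open flowers and siliques. Just inside it were AT1G52680 at -1.05 and AT2G46300 at -1.08. AT2G33690 was at -0.37 in buds with a shared probe averaged in.

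AT3G53770, of the LEA_3 family, went the other way from the 3 genes. Its log2 ratio was 2.70 in ABAP1OE buds, 1.86 in open flowers and -0.39 in siliques, which is 648%, 362% and 76.3% of the WT level. Only 1 of 5413 genes had a higher ratio in buds and 6 had a higher one in open flowers, where it was the only LEA gene past 2-fold, against 1.27% of all genes. Its silique ratio was 3.09 below its bud ratio, about as large a difference as that of LEA4-5 in the opposite direction. DI21, a drought-induced gene of the same family, was at 0.18, 0.12 and -0.18 and so within the central range of all genes at each stage.

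Dehydrins carry lysine-rich repeats and bind membranes in the cold and under drought, and 3 of 10 had a probe of their own. All 3 were above 0 in siliques, as were 2527 of all 5413 genes. The 2 probes shared by dehydrin genes only lay at -0.37 and -0.11 in buds and between -0.39 and 0.04 in siliques. LTI30, a cold- and ABA-induced dehydrin, was at -0.03 in buds, -0.49 in open flowers and 1.39 in siliques, where 19 genes had a higher ratio. With the silique column scaled to the spread of buds LTI30 was still past 2-fold, at 1.06, where LEA4-5 was not. AT1G54410, the small dehydrin HIRD11, was at 0.06, 0.23 and 0.77, and AT4G38410 at 0.33, 0.07 and 0.29. LEA4-5 and LTI30 were the 2 genes of the 15 that were at least 2-fold higher in siliques, against 1.24% of all genes, and 0 of the 15 were at least 2-fold lower there, against 2.36% of all genes.

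In the NDR1/HIN1-like family of AT2G46300, the other gene with a probe of its own was AT5G53730 (NHL26). AT5G53730 was at -0.41 in buds, 0.30 in open flowers and 0.96 in siliques, so it stood above AT2G46300 at every stage. The siliques of ABAP1OE had 195% of the WT level of AT5G53730 by its own probe, and with a shared probe averaged in its ratio there was 0.35. AT2G44060 (LEA26), of the LEA_2 family, was at 0.08, 0.06 and -0.04.

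**Figure D3:**
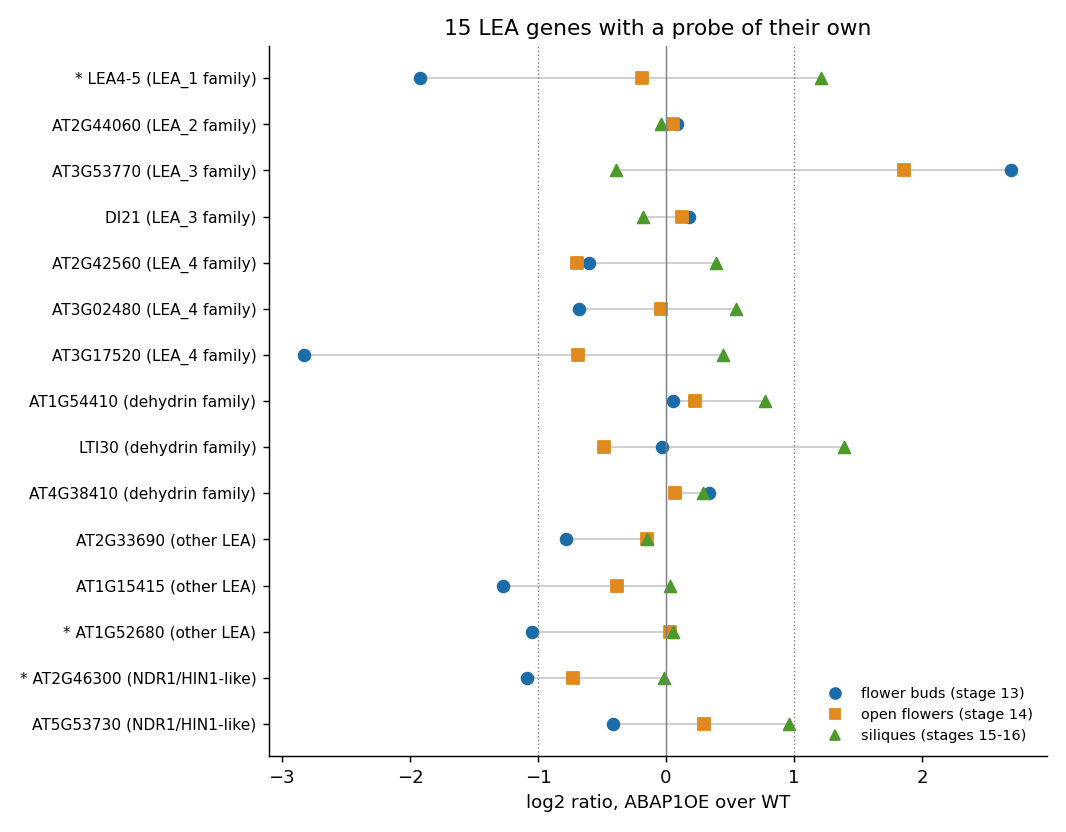
Log2 ratios of ABAP1OE over WT (horizontal axis) of the 15 LEA genes with a probe of their own (rows, family in brackets), with circles for flower buds, squares for open flowers and triangles for siliques, 1 combined value each. Stars mark LEA4-5, AT2G46300 and AT1G52680, and dotted lines mark 2-fold. The silique point lies right of the bud point in 11 of 15 rows, and AT3G53770 runs furthest the other way.

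Over the 15 genes, the silique ratio was above the bud ratio in 11, with a median difference of 1.07, and over all genes in 48.7%, with a median of 0. The 3 chosen genes were among the 11, and their low bud values had been part of the choice. Without them it was above in 8 of 12 genes, with a median difference of 0.86, and without AT1G15415 as well in 7 of 11, with 0.72. Between siliques and open flowers the ratio was higher in siliques in 11 of the 15 and in 8 of the 12, against 49.8% of all genes, with median differences of 0.55, 0.48 and 0. All 3 chosen genes were among these 11, AT1G52680 with a difference of only 0.03. Between open flowers and buds the ratio was higher in open flowers in 9 of the 15, against 48.0% of all genes. The median differences were 0.36 and 0. Without the 3 chosen genes it was higher in 6 of 12, with a median of 0.07. Without AT1G15415 as well it was higher in 5 of 11, with a median of -0.03.

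**Figure D4:**
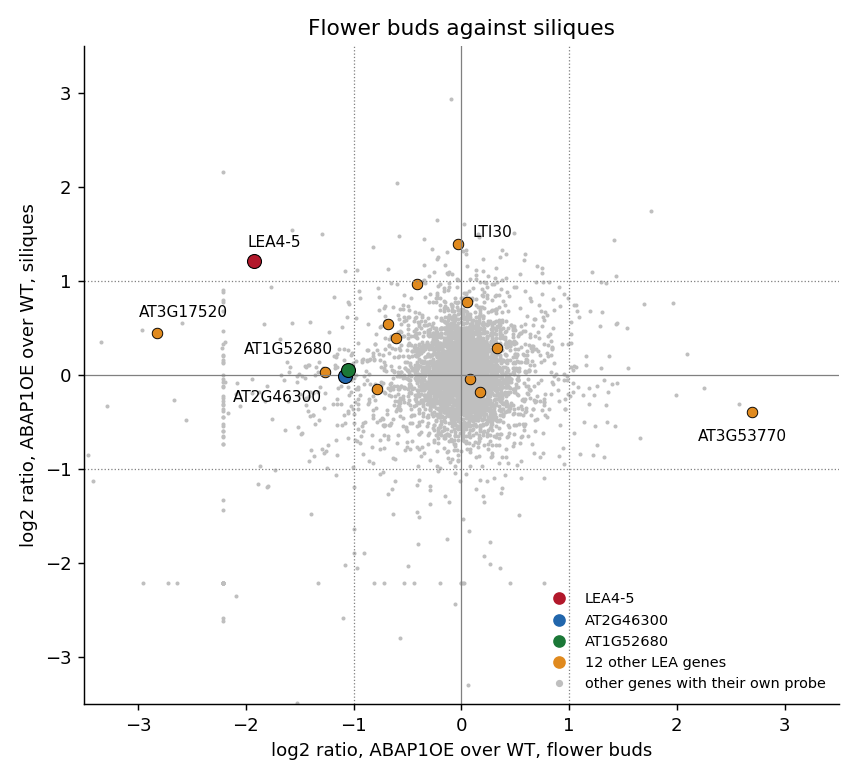
Log2 ratio of ABAP1OE over WT in flower buds (horizontal axis) and in siliques (vertical axis) for the 5413 genes (grey), the 3 chosen LEA genes (red, blue and green) and 12 other LEA genes (orange). Dotted lines mark 2-fold and 45 genes lie outside the axes. LEA4-5 is the only LEA gene in the upper left field, at least 2-fold lower in buds and at least 2-fold higher in siliques. Its bud value took part in its choice. AT2G46300 and AT1G52680 lie close together at about 0 in siliques.

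Shared probes, those with several gene symbols, were not read as values of a single gene, and 31 of them list at least 1 LEA gene. Of these, 3 probes of LEA_4 genes hold the same value at every stage and were counted once, which leaves 29. Of the 29, 8 were at least 2-fold lower in ABAP1OE flower buds, against 5.24% of all probes with several symbols. At least 2-fold higher were 0, against 1.24%. In open flowers 3 were at least 2-fold lower, against 3.08%, and in siliques 2, against 2.35%. Exactly at -2.21, the median of the empty spots, were 2 of the 8 in buds, 1 of the 3 in open flowers and both in siliques, and 0 were at least 2-fold higher at either stage, against 1.03% and 1.32%. Of the 8, 4 were among the 9 probes shared by LEA_4 genes only, whose median was -0.71 in buds and -0.11 in siliques. On these probes the median silique ratio was thus below 0, unlike that of the 3 LEA_4 genes with a probe of their own, 0.44. Over all 29 probes the median silique ratio was -0.11, against 0.29 over the 15 LEA genes with a probe of their own. The closest relatives of LEA4-5, the other LEA_1 genes, were on 2 of the shared probes, at -0.30 to -0.25 in buds and at 0.11 to 0.43 in siliques. Both probes had the same sign as LEA4-5 at these stages and were far smaller in size.

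Listed genes that act upstream of LEA genes or beside them could not be set beside the 3 genes, and genes outside the lists were not surveyed. The lists of 8 seed maturation regulators such as ABI3 and ABI5, 4 ABA-responsive bZIP factors, 12 ABA signalling genes, 9 genes of ABA synthesis and turnover, 8 ABA- and drought-induced genes, 13 seed storage and oil body genes and 4 genes of galactinol and raffinose synthesis were all without a named probe of a single gene. The 2 LEA_5 genes and the 6 seed maturation protein genes had none either.

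Markers of other cells of the flower were set beside the LEA ratios, since stage 13 buds hold mature pollen and embryo sacs. Of 10 late pollen markers 4 had a probe of their own, and all 4 were below 0 in ABAP1OE buds, as were 46.8% of all genes, between -1.51 and -0.19 with a median of -0.89. Of these, 1 was at least 2-fold lower, against 4.4% of all genes. In siliques they lay between -0.15 and 0.21. Of 8 embryo sac markers 4 had a probe of their own, between -2.19 and -0.07 in buds. Of these, 2 were at least 2-fold lower, against 4.4% of all genes. The lowest were UBC31, known from antipodal cells, at -2.19, -0.43 and 0.36 by stage, and EC1.1, an egg cell gene, at -1.61, -0.37 and -0.28. AGL61, a central cell gene, was at -0.40, 0.06 and -1.79, and DME, the remaining marker, at -0.07, -0.11 and -0.04. Of 7 tapetum markers and 5 endosperm and seed coat markers, none had a probe of its own. Thus 3 of the 8 markers, against 4.4% of all genes, were at least 2-fold lower in buds. That is the stage for which LEA4-5, AT2G46300 and AT1G52680 were chosen, and the part of these cells in the LEA ratios was not tested. The values are ratios and not levels, so the labelled organs could not be checked by whether a marker was present.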

How the data were processed

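Transcripts of ABAP1OE and WT organs were measured on 2-colour arrays of an Arabidopsis long oligonucleotide set (Operon version 1.0). The deposited values are log2 ratios of ABAP1OE over WT, which the authors combined over 3 replicates into 1 column per stage. How background was corrected, how channels were normalized and how replicates were averaged is not given in the sources used here. Folds were limited to 100-fold, and without intensities the signal behind each ratio is unknown.

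Of 26545 probes, 71 control spots were left out, 5784 had 1 gene symbol, 7497 several and 13264 none. Lacking a symbol does not mean that a probe has no gene, and several symbols were not checked for being names of 1 gene. Names were updated through gene identifiers to the TAIR10.1 RefSeq gene table, which matched 5756 of the probes with 1 symbol, and probes of a gene were averaged. Genes named were the 3 genes, LEA genes and listed markers with a probe of their own, and the 5 nearest genes of each. The members and gene lists were chosen with earlier results of these data known. The lists were written from general knowledge, and a planned description of promoter and protein sequences was not made. With 1 sample per stage no test was made. Alternatives were centring, shared probes, scaling of columns, the probe farthest from 0, other fold sizes and leaving out large values.

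Counting and ranking were tested on simulated data. Tables were handled with pandas 2.3.3 and numpy 2.4.6 and figures drawn with matplotlib 3.10.9, under Python 3.11.15 with scipy 1.17.1.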

Additional observations from a re-analysis of the deposited data

Results flagged for a closer look

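LEA4-5 was the only 1 of the 15 LEA genes with ratios past 2-fold in opposite directions at different stages, -1.92 in ABAP1OE flower buds and 1.21 in siliques. The bud value took part in the choice of the gene. Of 5413 genes, 6 were at least 2-fold lower in buds and 2-fold higher in siliques, and 1 was the reverse. With the silique column scaled to the spread of buds, LEA4-5 was at 0.92 there, under 2-fold. The difference between the stages was not tested, since each stage is 1 combined ratio. Stage and hybridisation cannot be told apart.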

How the results depend on the processing

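No paired analysis was possible because every stage holds 1 combined ratio per probe, and leaving out a replicate was not possible for the same reason. How far each spot stood above background is unknown. Of 102 recomputed values, 44 equalled the value as deposited, mostly where the setting could not move them (a gene with 1 probe, columns with a median of 0), 66 in all stayed within the spread between probes, 1.5 times a count or the exact binomial interval of a rank, and 36 moved. None of the ratios of the 3 genes past 2-fold changed sign in a setting tried.

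With columns scaled to the spread of flower buds, LEA4-5 was at 0.92 in siliques. With shared probes averaged in, AT2G46300 was at -0.71 (buds), -0.27 (open flowers) and -0.33 (siliques). The LEA median in that setting was -0.27 (buds) and -0.014 (siliques). It was taken over a larger set, which adds the LEA genes found only on shared probes. Without the 3 chosen genes, a setting added after seeing the data, the bud median was -0.22. The cause of these moves was not tested beyond the probes or genes that each setting adds or removes.

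The counts of genes past 2-fold moved as follows, in the order buds, open flowers and siliques. At 1.5-fold 417, 302 and 335 genes were lower and 213, 226 and 309 higher. At 3-fold 137 (buds) and 82 (siliques) were lower, and 10, 12 and 11 were higher. With shared probes, which bring in more genes, 648, 465 and 340 were lower, and 105 were higher in siliques. Over every transcript probe 1191, 782 and 640 were lower and 283, 292 and 326 higher. Those are counts over 25557, 25555 and 25550 probes. Both settings count over more features than the 5413 genes, so a larger count there is not a larger share. Without values 4-fold or more from WT, 120, 52 and 51 were lower.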
